A study of Mus musculus with 4 samples.

Results

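The clustered protocadherins are cell-surface adhesion proteins of the cadherin superfamily whose genes lie side by side on mouse chromosome 18 in an alpha, a beta and a gamma cluster. Members were taken as the protein-coding genes whose symbols carry the cluster letter and a number or a C-type name (for example Pcdha5, Pcdhb17, Pcdhga12, Pcdhgc3). They number 44 of 20194 genes listed at either stage, namely 4 alpha, 20 beta and 20 gamma genes. The table of embryonic day 18 (E18) lists 43 of them among 17344 genes and that of embryonic day 15 (E15) lists 41 among 19031, with 40 in both. The GENCODE M21 annotation holds 57 genes of these names, so 13 are not analysed here (10 alpha, 2 beta and 1 gamma), the C-type genes Pcdhac1 and Pcdhac2 among them.

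The members run from position 36960440 to 37841873 of chromosome 18 on the plus strand, coordinates that are identical in the deposited tables and in the GRCm38 annotation. The alpha genes come first (36960440 to 37187657), then the beta genes (37294812 to 37524479), then the gamma genes (37661793 to 37841873). In the alpha and gamma clusters each gene has its own promoter and its own large first exon, which encodes the whole extracellular part and the membrane span, and this exon is spliced to constant exons that all genes of the cluster share. Beta genes consist of such an exon alone. In neurons, single cells switch on different small sets of these promoters under control of the insulator protein CTCF and cohesin, and the proteins bind copies of themselves on a neighbouring cell, by which a neuron tells its own branches from those of others. Their expression outside neurons is less well described.

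RNA sequencing was done on brain endothelial cells of C57BL/6 mouse embryos, with 1 library in each of 4 groups. The ECKO groups are UCP2f/f;Tie2-cre embryos at E18 and at E15, in which a floxed Ucp2 gene, encoding a carrier of the mitochondrial inner membrane, meets Cre from the Tie2 promoter, active in endothelial cells and most blood cells. The other groups are wild type (WT) at the same stages. The sources used here do not say how many embryos went into a library or how cells were isolated. Library totals were 21992660 reads in ECKO E18, 19075407 in WT E18, 16328300 in ECKO E15 and 15542930 in WT E15, and values below are CPM, reads scaled to these totals as counts per 1000000, in that order of libraries unless named.

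Ucp2, the targeted gene, had 3296 reads in the ECKO library and 6696 in the WT library at E18 (150 and 351 CPM, log2 ratio -1.22). At E15 it had 2666 reads in ECKO and 4285 in WT (163 and 276 CPM, log2 ratio -0.75), so it was lower in both ECKO libraries and absent from neither. All 16 endothelial markers on the list were detected in every library, with summed levels between 32043 and 35015 CPM. The 17 to 18 listed neuronal markers summed to 63.2 CPM in ECKO E18, 79.9 in WT E18, 86.9 in ECKO E15 and 147.7 in WT E15. The E18 libraries also differed in sex-linked transcripts. Ddx3y, on the Y chromosome, had 0 reads in ECKO and 5826 in WT, and Xist, the RNA of the inactive X, had 547 in ECKO and 0 in WT, so genotype and sex cannot be told apart at E18. Both E15 libraries had Xist reads (2109 in ECKO and 2549 in WT). With 1 library per group no ratio has a replicate check. Intervals beside ratios are exact (Clopper-Pearson, 95%), were computed from the reads, and cover counting error only.

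Reads of the listed clustered protocadherins were present in all 4 libraries at similar summed levels, almost all of them from the beta and gamma clusters. The members summed to 329 CPM in ECKO E18, 407 in WT E18, 344 in ECKO E15 and 346 in WT E15. At least 1 CPM was reached by 36 of 43 listed members in ECKO E18, 40 of 43 in WT E18, and 35 of 41 in both E15 libraries. Beta genes summed to 184 CPM in ECKO E18, 203 in WT E18, 184 in ECKO E15 and 174 in WT E15. For gamma genes the sums were 144, 202, 160 and 171 CPM. The alpha genes gave 0.455, 2.04, 0.490 and 0.708 CPM, that is 10, 39, 8 and 11 reads. Because this is bulk RNA, few cells with much of a transcript and many cells with little of it cannot be told apart.

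**Figure D1:**
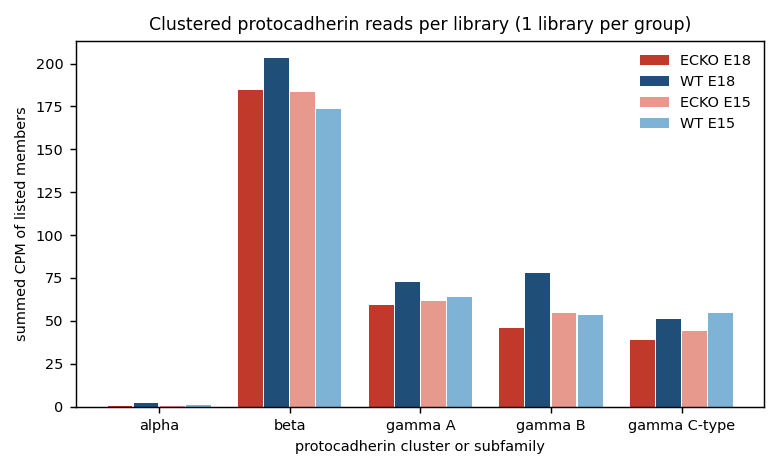
Summed CPM (reads scaled to the library total) of the listed alpha, beta, gamma A, gamma B and gamma C-type protocadherins in the ECKO and WT libraries at E18 and E15, with 1 library per bar and therefore no error bar. Alpha genes reach at most 2.04 CPM, while beta genes reach 174 to 203 CPM and each gamma subfamily stays between 38.7 and 78.1 CPM.

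No single gene carried the clusters. The effective number of members was taken as the exponential of the Shannon entropy of their shares of reads. It was 25.9 in ECKO E18, 29.2 in WT E18, 29.1 in ECKO E15 and 28.8 in WT E15. The leading member held 10.9% of all member reads in ECKO E18 (Pcdhb20), 11.9% in WT E18 (Pcdhb17), 10.2% in ECKO E15 (Pcdhb17) and 9.29% in WT E15 (Pcdhgc3). Within the beta cluster the effective number was 12.7, 13.3, 13.7 and 14.2, and within the gamma cluster it was 13.3, 15.5, 15.5 and 14.4. Many variable exons of the beta and gamma clusters were therefore read at once in each library, and the tissue-level counts do not show how many a single cell uses.

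The 4 listed alpha genes were at or near the limit of detection. Pcdha9 had 0 reads in ECKO E18 and 25 in WT E18, and Pcdha5 had 0 and 13. Pcdha12, the only alpha gene listed at both stages, had 10 reads in ECKO E18, 1 in WT E18, 0 in ECKO E15 and 11 in WT E15. Pcdha7, listed at E15 alone, had 8 reads in ECKO and 0 in WT. Each alpha gene was thus seen in at most 1 library of a stage with more than 1 read. None reached the minimum used for ratios, 1 CPM in a compared library and 50 reads over both, and a count of 0 allows up to 0.136 CPM in ECKO E18 and up to 0.193 CPM in WT E15. The alpha sum at E18 was lower in ECKO beyond counting error (10 reads in ECKO and 39 in WT, log2 ratio -2.17, interval -3.34 to -1.14), although without Pcdha9 the ratio was -0.69, and at E15 it was not distinguishable (8 and 11 reads, log2 ratio -0.53, interval -2.05 to 0.92).

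The 5 beta genes with the highest mean CPM, uncorrected for length, were Pcdhb17, Pcdhb20, Pcdhb19, Pcdhb22 and Pcdhb21, with Pcdhb7 (mean 13.0 CPM) next. Pcdhb17 had 25.3 CPM in ECKO E18, 48.3 in WT E18, 35.0 in ECKO E15 and 21.9 in WT E15. Pcdhb20 had 35.9 CPM in ECKO E18, 21.7 in WT E18, 21.9 in ECKO E15 and 25.5 in WT E15. The order of these leading genes thus differed between libraries of the same stage. Pcdhb19 had 20.7, 14.4, 16.5 and 17.0 CPM, Pcdhb22 had 11.5, 14.3, 15.3 and 14.7 CPM, and Pcdhb21 had 13.0, 14.3, 10.5 and 14.2 CPM in the same order. These last 3 varied little, with a highest over lowest value of 1.44, 1.33 and 1.36. At the low end, Pcdhb2 stayed between 0.919 and 1.36 CPM, and Pcdhb13, listed at E18 alone, had 3.96 CPM in ECKO and 5.50 in WT.

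Pcdhgc3, a C-type gene, had the most reads of the gamma cluster in every library, with 33.0 CPM in ECKO E18, 35.5 in WT E18, 24.7 in ECKO E15 and 32.1 in WT E15. C-type genes stand at the downstream end of the cluster and are, in neurons, used by most cells rather than chosen at random. The neighbouring C-type gene Pcdhgc4, whose loss impairs survival of interneurons in mice, had 5.32 CPM in ECKO E18, 10.7 in WT E18, 14.1 in ECKO E15 and 18.9 in WT E15. Pcdhgc5, the last of the cluster, had 0.364 CPM in ECKO E18, 4.77 in WT E18, 5.08 in ECKO E15 and 3.28 in WT E15. Pcdhgc3 therefore made up 85.3% of the C-type reads in ECKO E18, 69.7% in WT E18, 56.3% in ECKO E15 and 59.1% in WT E15.

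Other leading gamma genes came from both gamma subfamilies of variable exons, A and B. Pcdhgb4 had 11.6 CPM in ECKO E18, 17.1 in WT E18, 21.3 in ECKO E15 and 15.2 in WT E15. Pcdhgb2 had 12.4, 14.9, 8.08 and 12.7 CPM, and Pcdhga12 had 5.41, 11.1, 14.8 and 12.7 CPM. Pcdhga1 and Pcdhga11 were the lowest, at 0.579 to 1.68 CPM and 0.227 to 1.53 CPM.

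Levels of different genes can be set side by side only per length. Per kilobase of exon that overlaps no other annotated gene, Pcdhgc3 averaged 17.2 CPM over the 4 libraries, the highest of the 44 members. It was followed by Pcdhb20 with 7.37 CPM per kilobase, Pcdhb17 with 7.0, Pcdhgb4 with 4.55 and Pcdhgb2 with 4.35, and the third of the beta genes was Pcdhb7 with 3.71. The value of Pcdhgc3 rests on 1821 bases, because genes on the opposite strand were excluded too. With genes of the same strand alone excluded it had 3380 bases and 9.27 CPM per kilobase, still the highest. Per kilobase of all annotated exon, shared constant exons included, the order changed to Pcdhb20 (7.37), Pcdhb17 (7.0) and Pcdhgc3 (5.70). Which length is right depends on strandedness and on how reads in the shared constant exons were assigned. The sources used here give neither. Gene models of the 20 listed gamma genes held 1256 to 4614 bases of unshared exon, and those of the listed beta genes 2801 to 8695 bases.

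Gamma and alpha genes share their constant exons. In the annotated transcripts, 26.9% to 65.3% of all 50-base windows of a listed gamma gene occur in another member as well (median 44.3%), against 1.5% to 11.3% in a listed beta gene (median 4.26%). For the 4 listed alpha genes the share was 57.9% to 63.9%. By position alone, 31.5% to 66.8% of the annotated exon of a listed gamma gene overlaps another gene on the same strand, which is close to the shares of shared windows. The windows therefore do not measure how far reads of the gene's own exon could be mistaken for another member, and beta genes, which have no constant exons, give the lower figure.

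**Figure D2:**
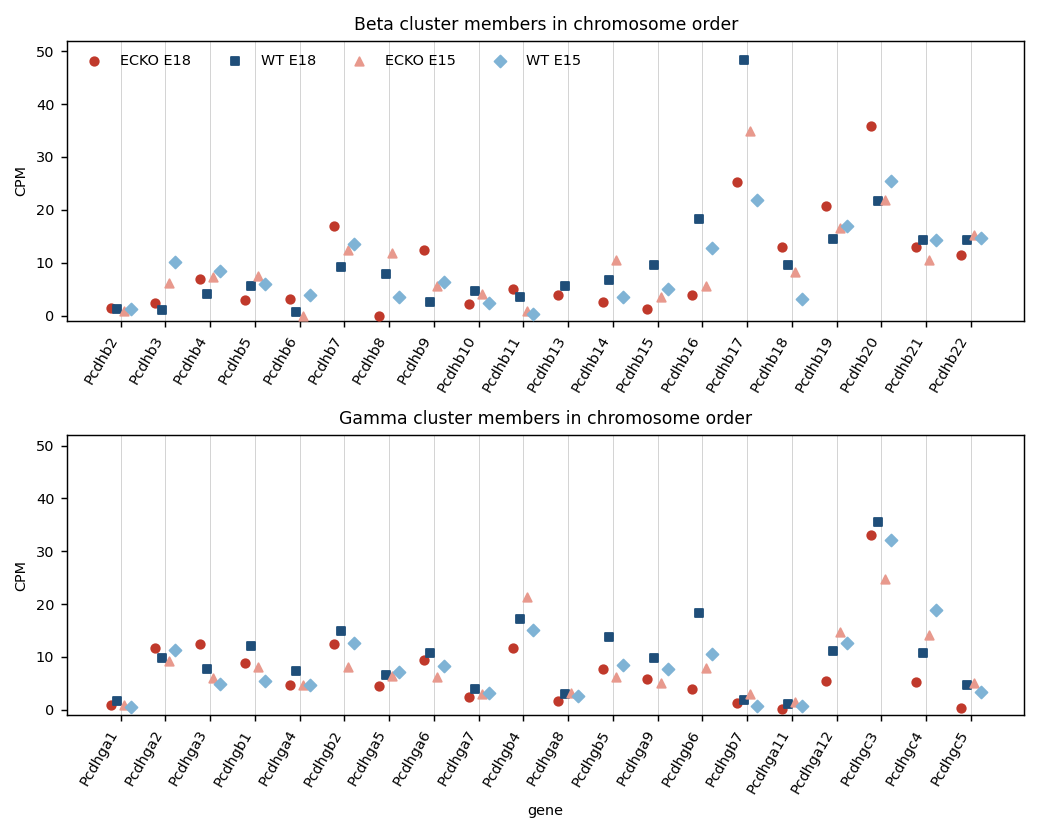
CPM of each listed beta gene (upper panel) and gamma gene (lower panel) in chromosome order, with 1 symbol per library (ECKO E18, WT E18, ECKO E15, WT E15). Pcdhb17, Pcdhb20 and Pcdhgc3 stand above the rest with values from 21.7 to 48.3 CPM, and, of the genes shown, Pcdhb8 alone is at 0 in ECKO E18 and Pcdhb6 alone in ECKO E15.

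Across the 4 libraries the range of the members was described by the ratio of their extremes. The highest over the lowest CPM of a gene had a median of 2.21 over the 17 beta genes with reads in all 4 libraries and of 2.09 over the 20 gamma genes. Pcdhb8 and Pcdhb6, without a read in 1 library each, are left out of these medians. More than 3-fold separated the extremes in 7 of those 17 beta genes (41.2%) and in 5 of 20 gamma genes (25%). Of 2440 genes of all kinds with a mean between 3.37 and 11.2 CPM, the middle range of the members, 29.0% passed 3-fold and the median was 2.17. With a library at 0 reads set to the floor of 3 reads, more than 3-fold was passed by 9 of 19 beta genes (47.4%), 5 of 20 gamma genes (25%) and 29.9% of the 2469 genes of the same range. The widest ranges were those of Pcdhb8, at least 87.1-fold, and Pcdhb6, at least 21-fold, followed by Pcdhgc5 (14-fold), Pcdhb11 (13.1-fold) and Pcdhb3 (9.63-fold). Pcdhga2 (1.26-fold) had the narrowest.

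The ECKO and WT libraries were compared at each stage as the log2 ratio of ECKO over WT. To both sides 1 CPM was added, and a ratio of 2-fold or more was called. Genotype and sex cannot be told apart in the E18 ratios. At E18 the gamma cluster was lower in the ECKO library, over most of its genes, while beta genes had ratios of both signs. The gamma sum was 3166 reads in ECKO and 3849 in WT (144 and 202 CPM, log2 ratio -0.49, interval -0.56 to -0.42). Of 19 gamma genes that passed the minimum, 17 had a ratio below 0, with a median of -0.52, against 6142 of 12349 genes of all kinds (median 0.00). Gamma genes share constant exons and sequence, so their ratios may not be independent of each other. Their intervals lay wholly below 0 for 14 and wholly above 0 for 1, Pcdhga3 (275 reads in ECKO and 146 in WT, log2 ratio 0.64).

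The lower gamma sum was spread over its subfamilies. Gamma A genes summed to 59.2 CPM in ECKO and 72.7 in WT (log2 ratio -0.30), gamma B genes to 46.0 and 78.1 CPM (-0.76), and C-type genes to 38.7 and 51.0 CPM (-0.40). All 6 gamma B genes had ratios below 0, from -0.25 for Pcdhgb2 to -1.97 for Pcdhgb6. The C-type sum hid unequal genes, since Pcdhgc3 was nearly level (726 reads in ECKO and 677 in WT, log2 ratio -0.10, interval -0.26 to 0.05) and Pcdhgc4 (117 and 204 reads) and Pcdhgc5 (8 and 91 reads) were at -0.89 and -2.08. Neurons are a known source of clustered protocadherins, and over the same libraries the neuronal markers had a median of -0.61 over 15 passing genes, with 4 of them lower past 2-fold, 1 higher, and Snap25 and Neurod1 at 0 in ECKO. Their part in the gamma difference was not tested.

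Of the 43 listed members 39 passed the minimum at E18, the others being 3 alpha genes and Pcdhga11. In all, 8 of these 39 were past 2-fold at E18 (20.5%), 2 higher and 6 lower, against 6.8% of all genes tested (2.88% higher and 3.92% lower). Pcdhb8, Pcdhgc5 and Pcdhb6 were under 1 CPM in the library where they were low, so they passed the minimum only through the other one, and the count of 8 supports nothing by itself. Among genes with a mean over both libraries in the middle range of the members the share was 12.3%, and 5 of the 19 members in that range were past 2-fold. Of the 8, 6 were beta genes and 2 gamma genes. With 5 CPM added in place of 1, 5 of the 39 were past 2-fold, against 1.00% of all genes. Pcdhb9 had 272 reads in ECKO and 50 in WT (log2 ratio 1.88, interval 1.80 to 2.7), and Pcdhb6 had 69 and 12 reads (1.34). Pcdhb8 had 0 reads in ECKO and 149 in WT, at least 57.3-fold lower against a floor of 3 reads. Among the 12349 genes tested, 48 had no read in ECKO at E18, a count over genes of all levels and not matched to that of Pcdhb8.

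The other lower genes at E18 kept some reads in ECKO. Pcdhb15 had 27 reads in ECKO and 184 in WT (log2 ratio -2.26, interval -3.61 to -2.39). Pcdhb16 had 85 and 348 reads (-1.98), and Pcdhb14 had 57 and 130 (-1.12). Pcdhgb6 had 86 reads in ECKO and 348 in WT (log2 ratio -1.97, interval -2.58 to -1.88), and Pcdhgc5 had 8 and 91 (-2.08). Pcdhb17, the beta gene with most reads, was just short of 2-fold, with 556 reads in ECKO and 921 in WT (log2 ratio -0.91, interval -1.09 to -0.78). The beta sum was 4054 reads in ECKO and 3875 in WT (184 and 203 CPM, log2 ratio -0.14, interval -0.20 to -0.08), and this sign rested on Pcdhb17, since without it the beta ratio was 0.04. Of the 20 beta genes, 10 had ratios above 0 and 10 below 0, with a median of -0.01.

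**Figure D3:**
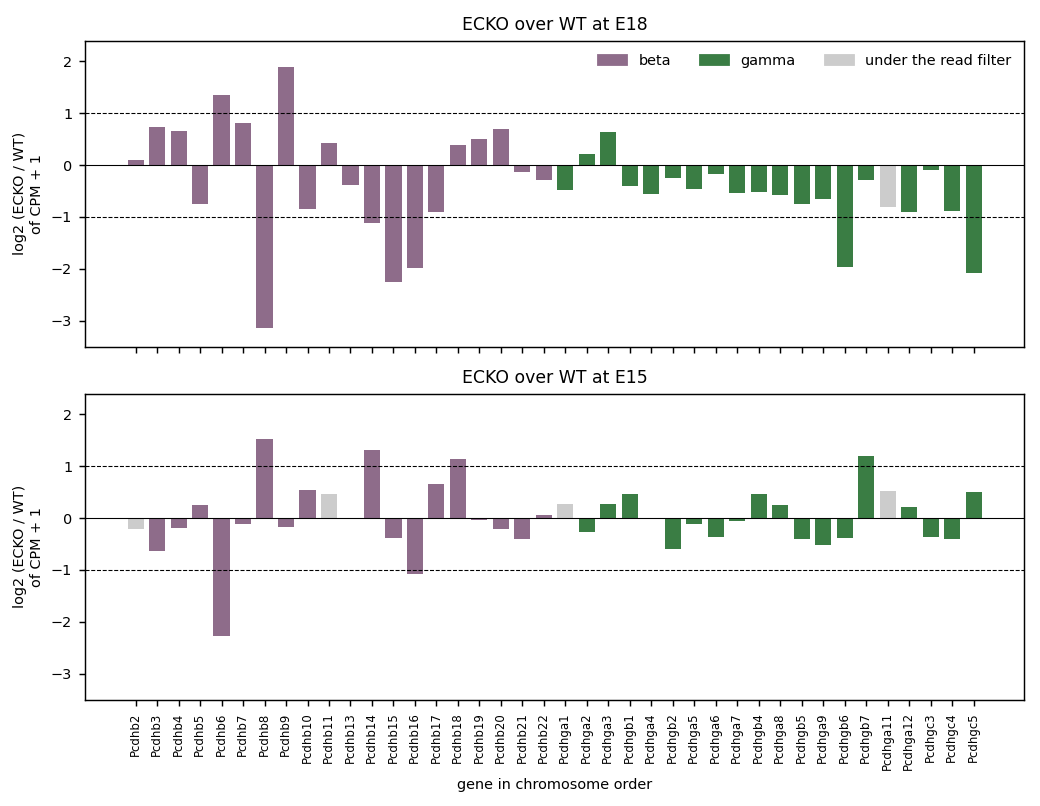
Log2 ratio of ECKO over WT (CPM + 1) for each listed beta and gamma gene in chromosome order, at E18 (upper panel) and E15 (lower panel), with dashed lines at 2-fold and grey bars for genes under the read minimum. At E18 gamma bars lie below 0 for 17 of 19 passing genes while beta bars reach from -3.14 to 1.88, and at E15 gamma bars lie on both sides of 0. Pcdhb13 is not listed at E15 and has no bar there.

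At E15 the clusters as wholes were near level between the genotypes, and single beta genes differed. The beta sum was 2999 reads in ECKO and 2700 in WT (184 and 174 CPM, log2 ratio 0.08, interval 0.00 to 0.16), and without Pcdhb17 it was -0.03. The gamma sum was 2608 reads in ECKO and 2661 in WT (160 and 171 CPM, log2 ratio -0.10, interval -0.18 to -0.02). Of 18 passing gamma genes, 10 had ratios below 0 and 8 above, with a median of -0.08. C-type genes had the lowest ratio of the gamma subfamilies (43.9 CPM in ECKO and 54.3 in WT, log2 ratio -0.31, interval -0.45 to -0.16). The neuronal markers had a median of -0.63 over 14 passing genes at this stage, with 5 lower and 0 higher past 2-fold and none of those listed at 0 in either library, and their part was not tested.

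Of the 41 listed members 35 passed at E15. Past 2-fold were 6 of these 35 (17.1%), 4 higher and 2 lower, against 6.87% of all genes tested (3.55% higher and 3.32% lower). In the middle range of the members' levels the share was 9.99% of all genes, and 4 of 17 members. With 5 CPM added, 0 members were past 2-fold, against 1.88% of all genes. Pcdhb8 had 194 reads in ECKO and 54 in WT (log2 ratio 1.53, interval 1.33 to 2.24). Pcdhb14 had 171 and 56 reads (1.32), Pcdhb18 had 135 and 50 (1.14), and the gamma gene Pcdhgb7 had 50 and 12 (1.20). Pcdhb6 had 0 reads in ECKO and 60 in WT, at least 21-fold lower. It was 1 of 24 genes without a read in ECKO among 12633 of all levels. Pcdhb16 had 91 reads in ECKO and 199 in WT (log2 ratio -1.07, interval -1.57 to -0.84). With 60 or 62 reads over both libraries, Pcdhb6 and Pcdhgb7 passed the minimum only through the library in which they were high.

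Comparing the stages, the genotype ratios of beta genes seldom pointed the same way. Of 17 beta genes that passed at both stages, 4 had the same sign at E18 as at E15, and of 18 gamma genes 10 did, against 51.5% of 11784 genes of all kinds. Past 2-fold at both stages were 4 members, all beta genes. Pcdhb16 was lower in ECKO at both. Pcdhb8, Pcdhb14 and Pcdhb6 were past 2-fold in opposite directions, as were 60 of the 135 genes of all kinds past 2-fold at both stages (44.4%). The difference between the stages has no replicate and was not tested.

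The additive test of edgeR, with genotype and stage as terms over the 4 libraries, takes what is common to both stages. It tested 38 members among 13416 genes. After Benjamini-Hochberg adjustment the edgeR quasi-likelihood test called 0 members for genotype at an adjusted p under 0.05 (smallest adjusted p = 0.755), and 3 of all genes (0.0224%). At an unadjusted p under 0.05 there were 2 members, both lower in ECKO, against 5.12% of all genes. These were Pcdhb16 (log2 change -1.72, lower in ECKO at both stages, edgeR adjusted p = 0.755) and Pcdhgb6 (log2 change -1.32, lower at both stages, edgeR adjusted p = 0.911). The DESeq2 Wald test also called 0 members for genotype, against 44 of 13416 genes of all kinds. It had 2 members at an unadjusted p under 0.05, against 4.50% of all genes. Genotype and stage are both terms of this fit, which leaves 1 residual degree of freedom. For a single gene, its own part of the error behind the edgeR p-values is therefore how far its genotype ratio differs between the stages. Genes whose ratios agree between the stages are thereby favoured. The larger part is borrowed from all genes tested, with 6.14 prior degrees of freedom against 1 residual. Variation among embryos of the same group enters neither part, because each group has 1 library.

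Between E18 and E15, the gamma sum was higher at E18 in the WT libraries and slightly lower in the ECKO libraries. WT E18 had Ddx3y and no Xist reads while WT E15 had Xist reads, so stage and sex cannot be told apart in WT. In WT the gamma sum was 3849 reads at E18 and 2661 at E15 (202 and 171 CPM, log2 ratio 0.24, interval 0.17 to 0.31), against a median of -0.11 over all genes. In ECKO it was 3166 reads at E18 and 2608 at E15 (144 and 160 CPM, log2 ratio -0.15, interval -0.23 to -0.07), against a median of -0.10. With TMM scaling, which centres all genes near 0, the gamma ratio was 0.36 in WT and -0.0357 in ECKO. Of the passing gamma genes, 13 of 17 had ratios above 0 in WT and 8 of 18 in ECKO. The gamma B genes showed this most in WT, with 5 of 5 ratios above 0 and sums of 78.1 CPM at E18 and 53.2 CPM at E15 (log2 ratio 0.55). The neuronal markers listed at both stages summed to 63.2 CPM at E18 and 85.9 at E15 in ECKO, and to 79.9 and 146.8 CPM in WT, and their part was not tested.

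The beta sum, over the 19 genes listed at both stages, was higher at E18 in WT (log2 ratio 0.19, interval 0.11 to 0.26) and level in ECKO (-0.03, interval -0.09 to 0.04). With TMM scaling these ratios were 0.31 in WT and 0.0881 in ECKO. Without Pcdhb17 the WT ratio was -0.0238. Pcdhb17 had 921 reads at E18 and 340 at E15 in WT (log2 ratio 1.11), and 556 and 571 reads in ECKO (-0.45).

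In ECKO, 11 of 36 passing members were past 2-fold between the stages, 3 higher and 8 lower at E18 (30.6%), against 15.3% of all genes (4.34% higher and 10.9% lower). The share was 24.1% of genes in the middle range of the members' levels, and 6 of 18 members in it. Pcdhb6, Pcdhb8, Pcdhb11 and Pcdhgc5 passed the minimum in ECKO only through the stage where they were high, and Pcdhb6 and Pcdhb11 did so in WT. In WT there were 7 of 35, 4 higher and 3 lower (20%), against 10.7% of all genes (3.08% higher and 7.58% lower). There the share in the middle range was 15.4% of genes, and 2 of 17 members. With 5 CPM added, 2 members in ECKO and 1 in WT were past 2-fold, against 6.25% and 3.43% of all genes.

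The stage ratios of 35 members that passed in both genotypes had the same sign in 17, against 65.7% of 11997 genes of all kinds. Past 2-fold in both genotypes were 4 members, 2 the same way and 2 in opposite ways, against 46 of 538 genes of all kinds in opposite ways (8.55%). Pcdhb3 and Pcdhb11 were past 2-fold the same way. Pcdhb3 was lower at E18, with 53 reads at E18 and 100 at E15 in ECKO (log2 ratio -1.06) and 20 and 157 reads in WT (-2.44). Pcdhb11 was higher at E18, with 111 and 15 reads in ECKO (1.66) and 67 and 6 reads in WT (1.70). Pcdhb9 and Pcdhb6 were past 2-fold in opposite directions. Pcdhb9 had 272 reads at E18 and 92 at E15 in ECKO (1.01), and 50 and 100 in WT (-1.04). With TMM scaling, Pcdhb9 in WT (-0.94) and Pcdhb3 in ECKO (-0.97) fell short of 2-fold. Pcdhb6 had 69 reads at E18 and 0 at E15 in ECKO, at least 17.1-fold higher, and 12 and 60 reads in WT (-1.58).

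The remaining stage differences past 2-fold were seen in 1 genotype. In ECKO, Pcdhb8 had 0 reads at E18 and 194 at E15, at least 87.1-fold lower, and Pcdhgc5 had 8 and 83 reads (log2 ratio -2.16). Pcdhb14 was at -1.68 in ECKO (57 reads at E18 and 171 at E15), Pcdhga12 at -1.30 (119 and 242), Pcdhgc4 at -1.26 (117 and 230), Pcdhb5 at -1.10 (64 and 121) and Pcdhb15 at -1.03 (27 and 58). In WT, Pcdhb18 had 184 reads at E18 and 50 at E15 (log2 ratio 1.34) and Pcdhgb1 had 231 and 86 (1.00). Whether the genotypes differ in these genes was not tested. Pcdhga12, Pcdhgc4 and Pcdhgc5 stand at the downstream end of the gamma cluster, and Pcdhgc3, which lies between Pcdhga12 and Pcdhgc4, had a ratio of the other sign in ECKO (726 reads at E18 and 404 at E15, log2 ratio 0.40).

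**Figure D4:**
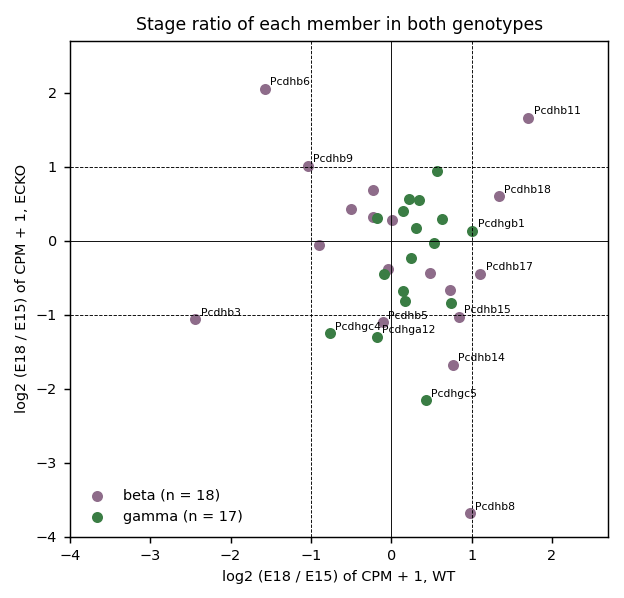
Log2 ratio of E18 over E15 (CPM + 1) of each protocadherin that passed the read minimum in both genotypes, in WT on the x axis and in ECKO on the y axis, with 18 beta and 17 gamma genes and dashed lines at 2-fold. Pcdhb3 (lower at E18) and Pcdhb11 (higher at E18) are past 2-fold the same way in both genotypes, while Pcdhb6 and Pcdhb9 lie in the quadrant of opposite directions.

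In the additive test, edgeR called 0 members for stage (smallest adjusted p = 0.174, Pcdhb11), whereas 1.34% of all genes were called. Unadjusted p-values under 0.05 were found for 5 members, against 16.7% of all genes. Pcdhb11, Pcdhb18 and Pcdhga3 were higher at E18 (log2 changes 2.90, 1.22 and 0.97), and Pcdhb3 and Pcdhgc4 lower (-2.16 and -0.99). Each of these 5 moved the same way in both genotypes, which adds no support, since the test favours genes whose stage ratios agree. DESeq2 called 0 members for stage, against 716 of 12635 genes of all kinds. It had 2 members at an unadjusted p under 0.05, against 15.35% of all genes.

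Other genes inside the locus were nearly level between the genotypes or, in 1 case, lower in ECKO at E18. Taf7, a subunit of the general transcription factor TFIID encoded between the beta and gamma clusters, had 1904 reads in ECKO and 1689 in WT at E18 (log2 ratio -0.03), and 1212 and 986 at E15 (0.22). Slc25a2, a mitochondrial ornithine carrier, had 23 reads in ECKO and 28 in WT at E18, and 22 and 26 at E15. Pcdhgb8, a polymorphic pseudogene in the annotation and therefore no member, stands among the gamma B genes and had 63 reads in ECKO and 373 in WT at E18 (log2 ratio -2.41), and 197 and 231 at E15 (-0.28).

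Genes known to control the clusters were measured as a list. On a list of 19 such chromatin genes, all passed the minimum and 0 were past 2-fold at E18 (median -0.04) or at E15 (median -0.02), against 6.8% and 6.87% of all genes, a share that 19 genes cannot be told from. Ctcf, whose binding sites mark the promoters and the distal enhancers, had 29.3 CPM in ECKO and 24.6 in WT at E18 (log2 ratio 0.25), and 59.2 and 38.2 CPM at E15 (0.62). Smchd1, a repressor that silences clustered protocadherins in mouse cells, had 46.9 CPM in both E18 libraries, and 49.9 in ECKO and 46.5 in WT at E15. Between the stages, 3 of the 19 were past 2-fold in ECKO and 1 in WT, all lower at E18, against 15.3% and 10.7% of all genes. Kdm1a, a histone demethylase, was lower at E18 in both genotypes (log2 ratio -1.49 in ECKO and -1.14 in WT), and Pds5a and Trim28 were lower in ECKO (-1.25 and -1.14).

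Of the protocadherins outside the clusters, 0 of 6 passing genes were past 2-fold at E18 and 0 of 5 at E15, which says little beside the 6.8% and 6.87% of all genes. Pcdh12, an endothelial protocadherin, had 280 CPM in ECKO and 287 in WT at E18, and 277 and 334 CPM at E15. Pcdh18 had 305 CPM in ECKO and 307 in WT at E18, and 211 and 314 CPM at E15. Pcdh17 had 39.3 and 37.6 CPM at E18, and 27.5 and 53.4 at E15 (log2 ratio -0.93). Pcdh1 had 66.3 CPM in ECKO and 54.5 in WT at E18, and 78.2 and 56.8 CPM at E15 (0.45).

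Cadherins and signalling partners are counted beside the share of all genes past 2-fold (6.8% at E18 and 6.87% at E15), and counts this small set no list apart. Cdh5, the endothelial cadherin, had 387 CPM in ECKO and 312 in WT at E18, and 192 and 194 CPM at E15. Of the classical cadherins and catenins, 1 of 12 passing genes was lower in ECKO at E18 (Cdh4, 56 and 118 reads) and 1 of 14 at E15 (Cdh8, 5 and 62 reads). Of the atypical cadherins, 0 of 5 were past 2-fold at E18 and 1 of 6 at E15 (Celsr2, 52 reads in ECKO and 126 in WT). Among 18 partners of the cytoplasmic tails at E15, Rac1, a small GTPase of actin remodelling, was higher in ECKO (8337 reads in ECKO and 2411 in WT, log2 ratio 1.71) and Ptk2b, a kinase that gamma protocadherins inhibit, was lower (19 and 58 reads, log2 ratio -1.13). At E18, 0 of 16 passing partners were past 2-fold. Between the stages, Rac1 was lower at E18 in both genotypes (log2 ratio -2.40 in ECKO and -1.51 in WT), Cdh13 was higher in WT (1.43), and Ctnnb1, which encodes beta-catenin, was lower in ECKO (-1.27). In ECKO, Cdh5 (1.01) and Wasf2 (1.09), which acts with Rac1 on actin, were higher at E18. In WT, Ptk2b (-1.49) and the kinase gene Prkca (-1.14) were lower.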

How the data were processed

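RNA from brain endothelial cells of 4 groups (ECKO and WT at embryonic days 18 and 15) was sequenced, with 1 library per group as labelled, where the design text mentions triplicates. The authors deposited a table per stage with raw read counts per gene, all whole numbers, summing to another total in every library. Per the file headers the tables also hold the authors' normalized CPM, their fold (a ratio of ECKO over WT), its log2 and p-values, whose test the sources used here do not give. These derived columns were not used for any value of this text. Per the submitters' processing notes, Bowtie2 2.2.3, TopHat2 2.0.12, HTSeq 0.6.0 and the build mm9 were named, without roles. All 84 member entries of the tables had start and end identical to GENCODE M21 on GRCm38, as did 90.1% of all genes found there, so coordinates are read as GRCm38. For strandedness and for reads in shared or overlapping exons, the treatment was not given in the sources used here.

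Counts were scaled to library totals (CPM). Log2 ratios used a pseudocount of 1 CPM, which understates differences of low genes, for genes that reached 1 CPM in either library compared and 50 reads in their sum. Stage ratios were limited to genes present in both tables. A fold against 0 reads is given as a bound, with 3 reads set for the empty library. Intervals are Clopper-Pearson at 95%, without the pseudocount, so they may not contain the log2 ratio. Reads are not counted by molecule, so intervals and floors cover counting error only. The additive test used edgeR 4.0.16 (glmQLFit, glmQLFTest, TMM) in R 4.3.3 on genes at 1 CPM or more in 2 or more libraries, adjusted by Benjamini-Hochberg over 13416 genes, with 1 residual degree of freedom and a common dispersion of 0.111. DESeq2 1.42.0, other scalings, pseudocounts and filters were tried as alternatives. The fits and ratios were tested on simulated data. For the additive test these had a lower dispersion than the real libraries, so they do not show how well it works here. Exon lengths and 50-base windows were computed from GENCODE M21 models. No sequence is printed here.

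Members named are those past 2-fold in a comparison, the 5 of each cluster with the highest mean CPM, and the C-type genes. Pcdhb2, Pcdhb7, Pcdhb13, Pcdhga1, Pcdhga2, Pcdhga3 and Pcdhga11 were named after their values were seen. Other genes named are drawn from list members past 2-fold, up to 3 for each list, with a few set background genes, Ucp2, and protein-coding genes within the locus. Pcdh18, Pcdhgb8 and the sex-linked genes were named after their values were seen. The members and lists were chosen with earlier results of these data known. Summed values of the other marker lists are given in the closing section.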

Additional observations from a re-analysis of the deposited data

Results flagged for a closer look

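Several protocadherin values went opposite ways in groups that were compared in the same manner, and none of these differences was tested, because each group has 1 library. For the genotype, the log2 ratio of ECKO over WT at E18 was -3.14 for Pcdhb8, -1.12 for Pcdhb14 and 1.34 for Pcdhb6, while at E15 it was 1.53, 1.32 and -2.28 for the same genes. The beta sum stood at -0.14 at E18 and at 0.0804 at E15, and both signs turned when Pcdhb17 was left out.

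For the stage, the log2 ratio of E18 over E15 was 2.05 for Pcdhb6 and 1.01 for Pcdhb9 in ECKO, and -1.58 and -1.04 in WT. With TMM scaling Pcdhb9 was at -0.94 in WT, short of 2-fold. The gamma sum was at -0.15 in ECKO and at 0.237 in WT. The alpha sum, which between the stages is Pcdha12 alone, was at least 1.31 in ECKO (10 reads at E18 and 0 at E15, against a floor of 3 reads) and, without a floor, -3.75 in WT (1 read at E18 and 11 at E15, interval -9.18 to -0.97).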

How the results depend on the processing

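No paired analysis was possible because each group has 1 library and the groups compared share fewer than 2 replicate numbers. For the same reason leaving out a library gave no fit. Single-gene ratios rest on few reads, and 24 of 32 values past 2-fold dropped below it with a pseudocount of 5 CPM, against 3 with TMM or with DESeq2 size factors and 0 with 0.5 CPM. None of the 32 changed sign, an outcome that was fixed in advance. An equal pseudocount on both sides keeps the sign, and the other scalings shift ratios by far less than 2-fold.

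With 5 CPM added, the members past 2-fold numbered 5 instead of 8 at E18, 0 instead of 6 at E15, 2 instead of 11 between the stages in ECKO and 1 instead of 7 in WT. The share of all genes past 2-fold was then 1.00%, 1.88%, 6.25% and 3.43% in the same order of comparisons. The larger pseudocount by construction shrinks ratios of low genes. Without the member with most reads, the beta ratio of ECKO over WT was 0.0386 at E18 and -0.0301 at E15, the E18 alpha ratio was -0.69 and the E18 gamma ratio was -0.58. Likewise, E18 over E15 was -0.0238 for beta in WT, -0.16 for beta in ECKO and -0.28 for gamma in ECKO. The other scalings shift all genes of the stage comparisons up by 0.11 to 0.12. The beta ratio of the stages was then 0.0881 (TMM) and 0.0988 (DESeq2) in ECKO and 0.31 and 0.30 in WT, and the gamma ratio was -0.0357 and -0.0251 in ECKO and 0.36 and 0.35 in WT. The alpha ratio of the stages in ECKO has no value, with 0 reads at E15. Member counts of the additive test were 0 under every alternative run, while genes of all kinds called moved from 3 for genotype to 29 with a filter at 5 CPM, 44 with DESeq2 and 0 without a filter, and from 180 for stage to 997, 716 and 92. Why these counts moved was not tested.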

Other observations

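Markers of other cell types differed between the libraries as well. Mural cell markers summed to 10908 CPM in ECKO E18, 8787 in WT E18, 4543 in ECKO E15 and 6900 in WT E15. Markers of microglia and macrophages summed to 158.8, 86.4, 328 and 675 CPM in the same order, and fibroblast and meningeal markers to 265, 261, 182 and 376 CPM. Erythroid markers summed to 723 CPM in ECKO E18, 918 in WT E18, 515 in ECKO E15 and 406 in WT E15. Markers of neural progenitors and radial glia stayed between 654 and 799 CPM, those of the oligodendrocyte lineage between 81.0 and 192.5 CPM, and those of the choroid plexus between 1.99 and 21.6 CPM. The part of any of these cells in the protocadherin values was not tested.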
